A study of Lupinus albus with 12 samples.

Results

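The genes described here encode proteins of the small ribosomal subunit in roots of white lupin (Lupinus albus), a legume. They were found by the deposited protein names, taking every gene whose name holds "40S ribosomal", "Small ribosomal subunit", "30S ribosomal" or "ribosomal protein S" followed by a digit or an a, and no gene named as a kinase or methyltransferase. The rule found 224 of 33388 genes. By name, protein family and annotated cell component, 131 of the 224 belong to the cytosolic ribosome, 27 to plastids and 19 to mitochondria. Another 15 carry bacterial-type names that fit either organelle, 9 are named as ubiquitin fused to ribosomal protein S27a, and 16 could not be placed. The remaining 7 match the words of the rule but are other proteins by their family, 4 of them subunits of translation elongation factor 1B. All plants were wildtype, of cultivar Amiga, grown in Hoagland nutrient solution. Untreated controls were harvested at 0 min, and the other plants 20, 40 or 80 min after sucrose was added to 10 mM, to find transcripts that respond to sucrose as a signal. Each group had 3 plants, each library was made from polyadenylated RNA of root sections with tips from 1 plant, and the 12 libraries shared a single flow cell lane. Controls were taken only at 0 min, so time since handling cannot be told apart from time with sucrose.

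The small subunit of the cytosolic ribosome binds messenger RNA, scans for the start codon and checks the pairing of codon and anticodon, while the large subunit joins amino acids. Ribosomal proteins are needed in equal number, plants encode most of them in several near-identical gene copies, and their transcripts are abundant in growing tissue such as the root meristem. Plastids and mitochondria hold their own bacterial-type ribosomes, most of whose small subunit proteins are encoded in the nucleus. In plants, sugar acts on ribosome production in part through the TOR kinase, and the S6 protein of the small subunit is a known target of the S6 kinase under TOR.

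Library totals ran from 35050877 reads (20 min, replicate 2) to 105299704 reads (80 min, replicate 2). The labelled tissue was checked with names of known cell types. The 4 root cap genes summed to 67.0 to 146 CPM (reads per gene scaled to library size) in the 9 sucrose-treated plants and to 155 to 313 CPM in the controls, so all treated plants stood below all controls. Over the 12 libraries, the 99 cyclin and DNA replication genes summed to 1470 to 2596 CPM, and the 111 photosynthesis genes to 349 to 1958 CPM. The part of root cap tissue in the results below was not tested. Plants of the same group differed in ways that the groups do not account for. The 12 low-oxygen genes, named for fermentation enzymes, hypoxia or hemoglobin, had sums of 30361, 1656 and 20331 CPM at 20 min (replicates 1, 2 and 3), compared with 7465, 6814 and 4042 CPM in control plants. At 80 min, replicate 3 had the lowest cytosolic small subunit level of its group by a wide margin, as described below. Cytosolic medians and counts of edgeR calls that rest on 20 min replicate 2 or 80 min replicate 3 are given with and without them. In whole root sections, fewer cells of a type and less RNA per cell cannot be told apart.

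Cytosolic small subunit genes were among the abundant transcripts of these roots. On the FPKM scale (fragments scaled to transcript length and library size, which allows levels of different genes to be compared), their median over the 12 plants was 73.5 FPKM, against 2.49 FPKM for all genes in the table. The median was 8.49 FPKM for the mitochondrial and 1.69 FPKM for the plastid members. The 131 cytosolic genes held 88.2% of the summed level (in CPM) of all 224 members. The 3 cytosolic genes with the highest mean level were an eS28 gene (Lalb_Chr01g0017661, 313 FPKM), an eS1 gene (Lalb_Chr09g0319911, 308 FPKM) and an eS7 gene (Lalb_Chr14g0371091, 275 FPKM). All 224 members had reads in some library, 23 of them had none in at least 1 library, and 208 had enough reads to be tested, including 128 of the 131 cytosolic genes. The 16 untested members had at most 116 reads over the 12 libraries.

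The 131 cytosolic genes fall into 30 protein families of 2 to 7 copies each. Families are named here by the universal scheme, in which uS proteins are shared with bacteria and eS proteins are not. Summed over its copies, a family's mean level ran from 122 FPKM for uS3, which lines the messenger RNA entry channel, to 714 FPKM for eS6, the S6 kinase target. That is a range of 5.86-fold over proteins that stand in the ribosome 1 to 1. Copies within a family were much less equal, as the plot of copies by family shows. In the median family, the most abundant copy supplied 44.9% of the family's FPKM, with 30.2% for eS24 at the low end and 99.4% for uS7, a protein of the subunit head, at the high end. In 29 of the 30 families at least 2 copies stood at 5 FPKM or more. In 18 families the same copy was the most abundant in all 12 plants. The files do not say how reads that match several genes were counted, so the split between near-identical copies is uncertain, and family sums are less exposed to it than single copies.

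**Figure D1:**
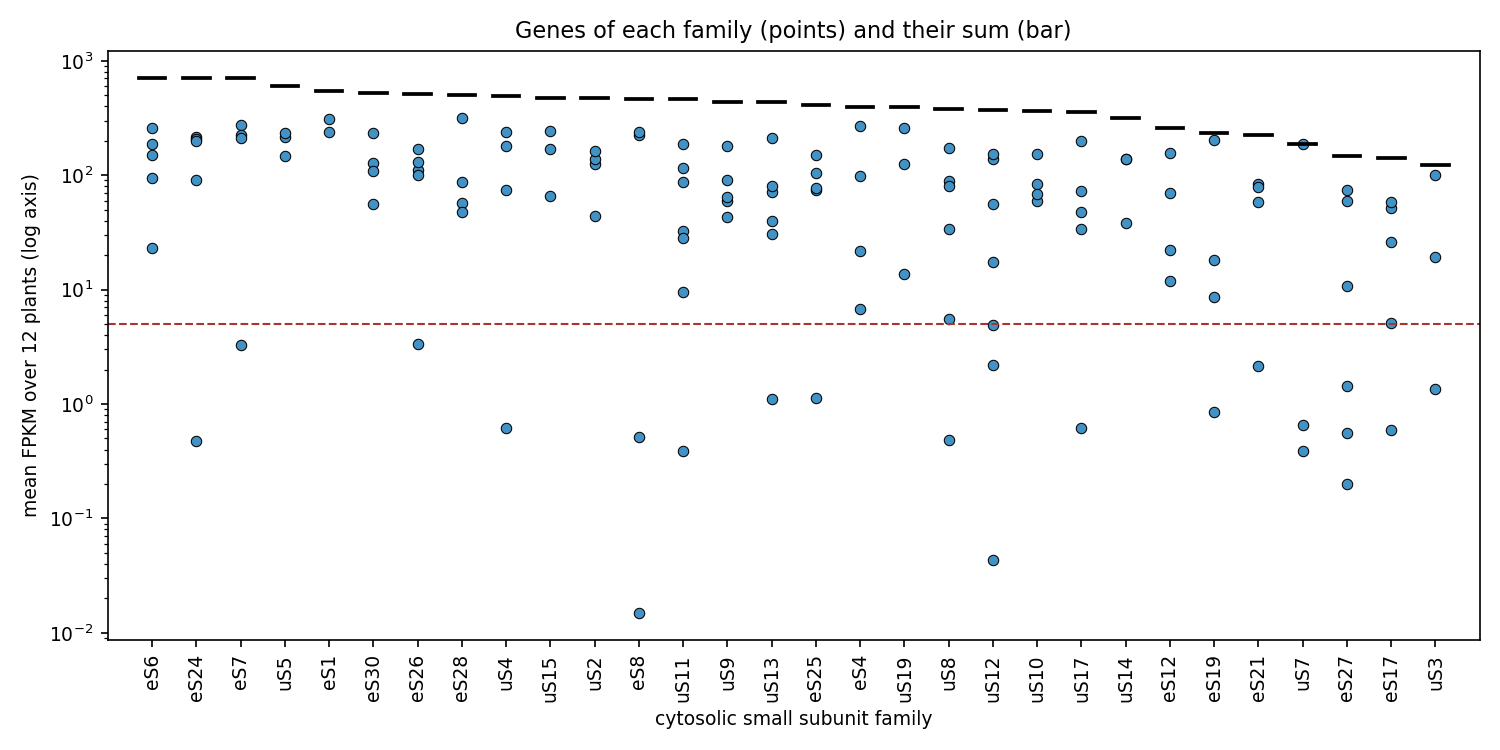
Mean FPKM over the 12 plants of each of the 131 cytosolic small subunit genes (points, log axis) by family, with the sum of the family (black bar); the dashed line marks 5 FPKM. Family sums lie between 122 and 714 FPKM, while in 12 of the 30 families the highest copy is at least 100 times the lowest.

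The families with the most copies show this spread. Of 7 copies of uS11 (named S14 in the table), a protein of the platform, the highest (Lalb_Chr12g0208961) averaged 186 FPKM and the lowest (Lalb_Chr06g0171851) 0.388 FPKM. Of 7 copies of uS12 (S23), which sits in the decoding centre, the highest (Lalb_Chr06g0171421) averaged 153 FPKM and the lowest (Lalb_Chr19g0137451) 0.0431 FPKM. Of 6 copies of uS13 (S18), which touches the large subunit from the head, the highest (Lalb_Chr06g0161711) averaged 210 FPKM and the lowest (Lalb_Chr02g0141561) 1.12 FPKM. Families uS8 and eS27 also have 6 copies each, from 172 FPKM at the highest to 0.484 FPKM at the lowest for uS8 and from 73.5 to 0.198 FPKM for eS27. The highest copy was the same gene in all 12 plants for uS11 and uS13, and in 11 of 12 for uS12.

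The summed level of the cytosolic small subunit genes was lower on average than in controls after 20 min and higher after 40 and 80 min, with wide spread between sucrose-treated plants. The sum was 19269, 16793 and 16008 CPM in the controls, 15259, 10465 and 19224 CPM at 20 min, 28028, 15377 and 23608 CPM at 40 min, and 32622, 31677 and 13693 CPM at 80 min (replicates 1, 2 and 3 each time). At every sucrose time the treated plants overlapped the control range or fell on both sides of it. Replicates 1 and 3 at 40 min and replicates 1 and 2 at 80 min stood above all controls, while replicate 2 at 40 min and replicate 3 at 80 min stood below all of them. As a share of all reads, these genes took 1.67% ± 0.136 in controls, 1.45% ± 0.341 at 20 min, 2.29% ± 0.657 at 40 min and 2.67% ± 1.02 at 80 min (SD, n = 3 each).

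**Figure D2:**
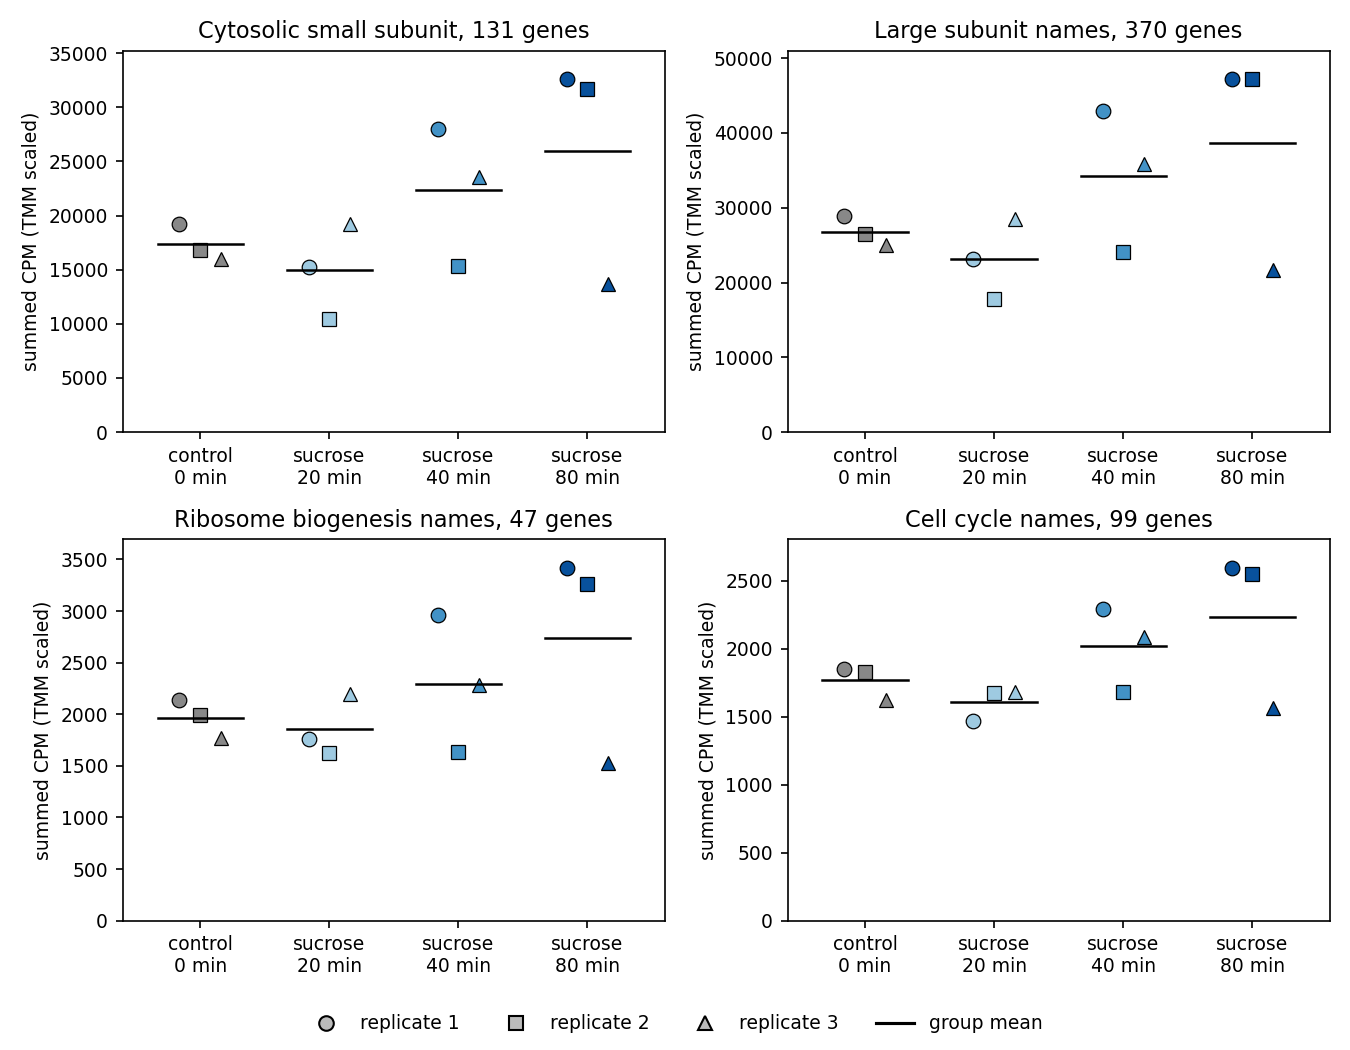
Summed CPM per plant of the 131 cytosolic small subunit genes and of 3 lists chosen by protein name (large subunit, ribosome biogenesis, cell cycle), by time of exposure; symbols are replicates and black lines are group means. In all 4 panels, replicates 1 and 2 at 80 min stand above all controls and replicate 3 at 80 min stands below all of them.

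Large subunit and ribosome biogenesis names were high and low in mostly the same plants, while translation factors followed less closely, as given below. The 370 large subunit names summed to 28896, 26499 and 25017 CPM in controls, 23182, 17745 and 28473 CPM at 20 min, 42942, 24080 and 35884 CPM at 40 min, and 47197, 47220 and 21644 CPM at 80 min. The large subunit list was not separated by compartment, so its values stand for a wider set than the cytosolic small subunit genes. The ratio of the cytosolic small subunit sum to the large subunit sum stayed between 0.590 and 0.691 in the 12 plants, a 1.17-fold range, although the small subunit sum itself varied 3.12-fold. The lowest ratio was that of 20 min replicate 2. The 47 ribosome biogenesis names (nucleolar and rRNA processing proteins) summed to 1768 to 2134 CPM in controls, 1626 to 2201 CPM at 20 min, 1637 to 2957 CPM at 40 min and 1526 to 3420 CPM at 80 min. The 99 cell cycle names summed to 1626 to 1852 CPM in controls, 1470 to 1684 CPM at 20 min, 1684 to 2289 CPM at 40 min and 1564 to 2596 CPM at 80 min. Cell cycle genes mark dividing cells, and the part of the amount of meristem per section in the small subunit level was not tested. Of the 344 large subunit genes tested, edgeR called 0 at each time against control. Before adjustment, 8 were higher and 18 lower at 20 min at p below 0.05 (7.32% and 5.28% of all genes), 6 and 6 at 40 min (2.07% and 3.92%), and 33 and 4 at 80 min (4.46% and 5.45%). DESeq2 called 7 lower at 20 min, 1 lower at 40 min and 1 higher at 80 min, where 2.03%, 1.55% and 0.933% of all genes were called in those directions. Their median log2 fold changes were -0.17, 0.33 and 0.54, beside -0.23, 0.38 and 0.58 for the cytosolic small subunit genes. For the tested small subunit members of all classes together, the medians were -0.12, 0.32 and 0.51. Of 45 biogenesis genes tested, edgeR and DESeq2 called 0 at each time. Before adjustment, 2 were higher at 20 min, 1 was lower at 40 min and 4 were higher at 80 min, to be read against the same shares of all genes.

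The comparison of 20 min with control asks which small subunit transcripts differed first. No member of the 208 tested had an adjusted p below 0.05 by edgeR's quasi-likelihood test, in which 0.0242% of all 28980 genes passed. Before adjustment, 5 members were higher and 13 lower at p below 0.05, where the background over all genes was 7.32% higher and 5.28% lower. DESeq2 called 3 members higher and 1 lower, with 2.06% of all genes called higher and 2.03% lower, and the authors' deposited table called the same numbers, with 4.09% of all genes called. The median log2 fold change of the 128 cytosolic genes was -0.23, with 33 of 128 above 0, against a median of 0.06 over all genes tested. All 3 sucrose plants stood below all controls for 33 of the 208 members and above them for 9, where 10.8% of all genes did so in each direction.

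eS30, a small basic protein of the eukaryotic small subunit, was the family with the lowest mean at 20 min relative to control. The eS30 gene Lalb_Chr09g0330091 had 48.3, 38.4 and 66.4 CPM at 20 min, compared with 111, 115 and 138 CPM in controls. All 3 plants at 20 min stood below all controls. Its log2 fold change was -1.25 ± 0.32 SE (adjusted p = 0.220 by edgeR), and DESeq2 gave an adjusted p of 0.0155, the lowest of 18 alternatives that reached up to 0.611. The other 3 eS30 genes had log2 fold changes of -0.73 (Lalb_Chr05g0221251), -0.66 (Lalb_Chr05g0214471) and -0.19 (Lalb_Chr16g0386691), none called by either tool. For 3 of the 4 eS30 genes, all plants at 20 min stood below all controls. The same held for 3 of 5 copies of eS26, which lies at the messenger RNA exit channel, and for 3 of 5 copies of eS17, a protein of the head. Over the 128 cytosolic genes tested, 22 (17.2%) stood below all controls and 5 (3.91%) above them. Among all genes, 10.8% did so in each direction. These families were picked after their values were seen, and their copies share the same plants.

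Summed over copies, 4 of 30 families stood below all controls in all 3 plants at 20 min, near the 10.8% of all genes. These were eS30, eS26, eS8 and uS3. Their mean log2 ratios to the control mean were -0.75 for eS30, -0.68 for eS26, -0.46 for eS8 and -0.48 for uS3. At the other end, eS7 (0.06), eS24 (0.04) and eS25 (0.02) were the 3 of 30 families with a mean above 0. The low-oxygen list moved in opposite directions in the plants at 20 min, as given above, and its part in these values was not tested.

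Among higher values at 20 min, an eS25 gene stood out from its family. The eS25 gene Lalb_Chr19g0138751, the least abundant of 5 copies at 1.13 FPKM, had 2.83, 10.1 and 2.85 CPM at 20 min, compared with 0.291, 0.852 and 1.02 CPM in controls. The groups did not overlap, and replicate 2 was the highest. Its log2 fold change was 2.86 ± 0.73 SE (adjusted p = 0.216 by edgeR), with a DESeq2 adjusted p of 0.00346 among alternatives that reached 0.491. The uS7 gene Lalb_Chr21g0316301 is outside the naming rule because its mean was below 2 CPM, and is given because DESeq2 called it. It had 1.39, 0.902 and 1.17 CPM at 20 min, compared with 0.291, 0.106 and 0.208 CPM in controls (log2 fold change 2.51 ± 0.54 SE; adjusted p = 0.163 by edgeR). It also stood above all controls at 40 and 80 min, with log2 fold changes of 1.91 and 2.02, and the authors' deposited table called it at all 3 times with log2 fold changes of 2.504, 1.90 and 2.02. At 40 and 80 min that table called 1.93% and 2.97% of all genes. It is a minor copy: the main uS7 gene, Lalb_Chr18g0053911, averaged 188 FPKM, against 0.390 FPKM for this one.

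Without 20 min replicate 2, edgeR called 2 members against control, while 3.43% of all genes passed. By edgeR these were the uS7 gene Lalb_Chr21g0316301 (log2 fold change 2.60; adjusted p = 0.0394) and the ubiquitin-S27a gene Lalb_Chr16g0382161 (-4.21; adjusted p = 0.0296), with adjusted p up to 0.491 and 0.730 under the other alternatives. The cytosolic median was then -0.13, with 54 of 129 above 0. It was -0.45 without 20 min replicate 3 and -0.36 without control replicate 3.

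The comparison of 40 min with control gave small positive values for most cytosolic genes, mainly from replicates 1 and 3, and no call by edgeR. edgeR called 0 members, with 0.0897% of all genes called. Before adjustment, 2 members were higher and 0 lower at p below 0.05, where the background was 2.07% higher and 3.92% lower. DESeq2 called 1 member higher, the uS7 gene Lalb_Chr21g0316301, and 0 lower, with 0.441% and 1.55% of all genes called. The cytosolic median log2 fold change was 0.38, with 115 of 128 above 0, against a median of 0.08 and 57.1% above 0 over all genes tested. Without 40 min replicate 1 the cytosolic median was 0.16, and without 40 min replicate 2 it was 0.53. Of the 30 families, 29 stood above the control mean in replicate 1, 6 in replicate 2 and 30 in replicate 3. All 3 plants stood above all controls for 13 of the 208 members, where 6.9% of all genes did so, and below them for 1, where 8.35% did so.

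At the level of families, 2 of 30 stood above all controls in all 3 plants at 40 min, near the 6.9% of all genes. These were eS21 and eS27, with mean log2 ratios of 0.41 and 0.43. The eS27 gene Lalb_Chr21g0316941, the main copy of its family and a zinc-binding protein, had 104, 72.2 and 99.1 CPM at 40 min, compared with 66.7, 61.3 and 64.1 CPM in controls. The groups did not overlap, and replicate 2 at 40 min was nearest the controls (log2 fold change 0.52 ± 0.29 SE; adjusted p = 0.948 by edgeR). uS7 was the 1 family of 30 with a mean below the control mean at 40 min (-0.16). On the lower side, an eS7 gene, Lalb_Chr05g0222441, had 4.23, 5.06 and 4.84 CPM at 40 min, compared with 8.16, 2.43 and 10.1 CPM in controls, with overlap (log2 fold change -0.55 ± 0.56 SE; adjusted p = 0.999 by edgeR).

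The comparison of 80 min with control gave the highest cytosolic median of the 3 times, and it rested on 2 of the 3 plants. edgeR called 0 members, with 0.0104% of all genes called. Before adjustment, 10 members were higher and 4 lower at p below 0.05, where the background was 4.46% higher and 5.45% lower. DESeq2 called 1 member higher and 1 lower, with 0.933% and 2.04% of all genes called. The cytosolic median log2 fold change was 0.58, with 118 of 128 above 0, against a median of 0.12 over all genes tested. Of the 30 families, 30 stood above the control mean in replicate 1, 30 in replicate 2 and 2 in replicate 3. All 3 plants stood above all controls for 13 of 208 members (background 8.62%) and below them for 2 (background 9.05%), and for no family sum.

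Among single genes at 80 min, a uS10 gene was higher in all 3 plants. The uS10 gene Lalb_Chr18g0052471, the highest copy of a head protein, had 215, 230 and 194 CPM at 80 min, compared with 123, 120 and 127 CPM in controls. The groups did not overlap, and replicate 3 was high here, unlike in most members (log2 fold change 0.79 ± 0.25 SE; adjusted p = 0.390 by edgeR). The eS30 gene Lalb_Chr16g0386691 had 84.0, 87.2 and 76.3 CPM at 80 min, compared with 62.9, 50.5 and 62.7 CPM in controls, again without overlap (log2 fold change 0.49 ± 0.17 SE; adjusted p = 0.421 by edgeR). An eS19 gene, Lalb_Chr21g0318401, was called lower by DESeq2 (adjusted p = 0.0135, among alternatives up to 0.810) and in the authors' deposited table (log2 fold change -6.86), and edgeR gave -6.81 (SE 2.83; edgeR adjusted p = 0.491). It had 0.0229, 0.152 and 0.168 CPM at 80 min, compared with 22.2, 0.0355 and 16.9 CPM in controls, so 1 control plant was also near 0.

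Without 80 min replicate 3, the cytosolic median against control was 0.88, beside 0.35 without replicate 1 and 0.36 without replicate 2 at 80 min. Without replicate 3, edgeR called 1 member, an eS21 gene (Lalb_Chr18g0051701), with 1.56% of all genes called. That gene had 164, 157 and 79.6 CPM at 80 min, compared with 82.0, 77.8 and 80.1 CPM in controls. Replicates 1 and 2 stood at about the same level above the controls, and replicate 3 lay within the control range. Without both 20 min replicate 2 and 80 min replicate 3, 14 members were called higher at 80 min, 13 of them cytosolic from 10 families, and 5.54% of all genes were called.

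The plants at 40 and 80 min can also be set against those at 20 min, here within the same fit of 12 libraries. No member was called by edgeR in the 3 comparisons between sucrose times, in which 0.0% of all genes were called each time. Between 40 and 20 min, 35 members were higher and 6 lower at p below 0.05 before adjustment, where the background was 6.34% higher and 7.83% lower. Between 80 and 20 min, 62 members were higher and 2 lower, where the background was 9.51% higher and 7.79% lower, and 50 of the 62 were cytosolic. Between 80 and 40 min, 4 were higher and 3 lower, where the background was 2.05% and 2.46%. The cytosolic medians were 0.61 (40 over 20 min), 0.79 (80 over 20 min) and 0.20 (80 over 40 min), against -0.02, -0.02 and 0.07 over all genes tested. In fits to only the 6 libraries compared, without controls, the cytosolic medians were 0.63, 0.84 and 0.19 in that order. Without 20 min replicate 2 the cytosolic medians were 0.42 at 40 over 20 min and 0.56 at 80 over 20 min, and without 80 min replicate 3 they were 1.10 at 80 over 20 min and 0.50 at 80 over 40 min. The direction between 80 and 40 min rested on single plants: the median was -0.01 without 40 min replicate 2 (60 of 128 genes above 0), -0.00081 without 80 min replicate 1 (64 of 129) and 0.02 without 80 min replicate 2 (75 of 129).

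DESeq2 called members in 2 of these comparisons. Between 40 and 20 min it called 7 higher and 2 lower, with 1.88% and 3.11% of all genes called. Between 80 and 20 min it called 19 higher and 0 lower, with 3.77% and 3.38% of all genes called, and 17 of the 19 were cytosolic genes of 11 families. Between 80 and 40 min it called 0 (background 0.343% higher and 0.517% lower). Plants at 40 min stood above all plants at 20 min for 37 members and below them for 5 (background 9.52% and 8.93%), and plants at 80 min stood above all plants at 20 min for 22 and below them for 6 (background 7.97% and 7.85%). Plants at 80 min stood above all plants at 40 min for 6 and below them for 4 (background 5.08% and 4.34%). A test for any difference among the 4 times called 0 members by edgeR, with 0.0725% of all genes called, and had p below 0.05 before adjustment for 29 members, with a background of 13.4%. DESeq2 called 8 in that test, with a background of 8.02%. Without 80 min replicate 3, edgeR called 64 members higher and 0 lower between 80 and 20 min, 30.5% of the 210 tested, where 12.0% of all genes passed. Of the 64, 55 were cytosolic, from 25 of the 30 families, with log2 fold changes of 0.73 to 2.86. All 4 copies of eS30 and of uS2, the homologue of the laminin receptor of animals, were among them, as were 4 of 5 copies of eS26 and of uS17. No copy of eS4, eS7, eS19, eS25 or eS28 was. The plant left out is the one in which these transcripts were low. Leaving out 20 min replicate 2 in its place gave 1 call between 80 and 20 min, or 0.478% of the members tested, where 3.3% of all genes passed.

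The eS30 genes had the smallest p among members in both comparisons with 20 min. Lalb_Chr09g0330091 had 177, 124 and 174 CPM at 40 min and 198, 207 and 92.2 CPM at 80 min, against the 48.3, 38.4 and 66.4 CPM at 20 min. Neither later group overlapped the 20 min group (log2 fold changes 1.63, SE 0.33, and 1.70, SE 0.33; edgeR adjusted p = 0.214 and 0.130). The most abundant eS30 gene, Lalb_Chr05g0221251, had 315, 191 and 286 CPM at 40 min and 326, 309 and 178 CPM at 80 min, compared with 101, 121 and 128 CPM at 20 min. It too showed no overlap, with log2 fold changes of 1.18 (SE 0.27) and 1.22 (SE 0.28) and edgeR adjusted p of 0.214 and 0.146. Its controls, at 219, 169 and 192 CPM, lay between the 20 min plants and the 2 highest plants of each later group. DESeq2 called 3 of the 4 eS30 genes at 40 min over 20 min, and 4 of 4 at 80 min over 20 min. It called 1.88% and 3.77% of all genes higher in these comparisons, and edgeR called no eS30 gene in either. Both comparisons reuse the 20 min plants in which this family was lowest relative to control.

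**Figure D3:**
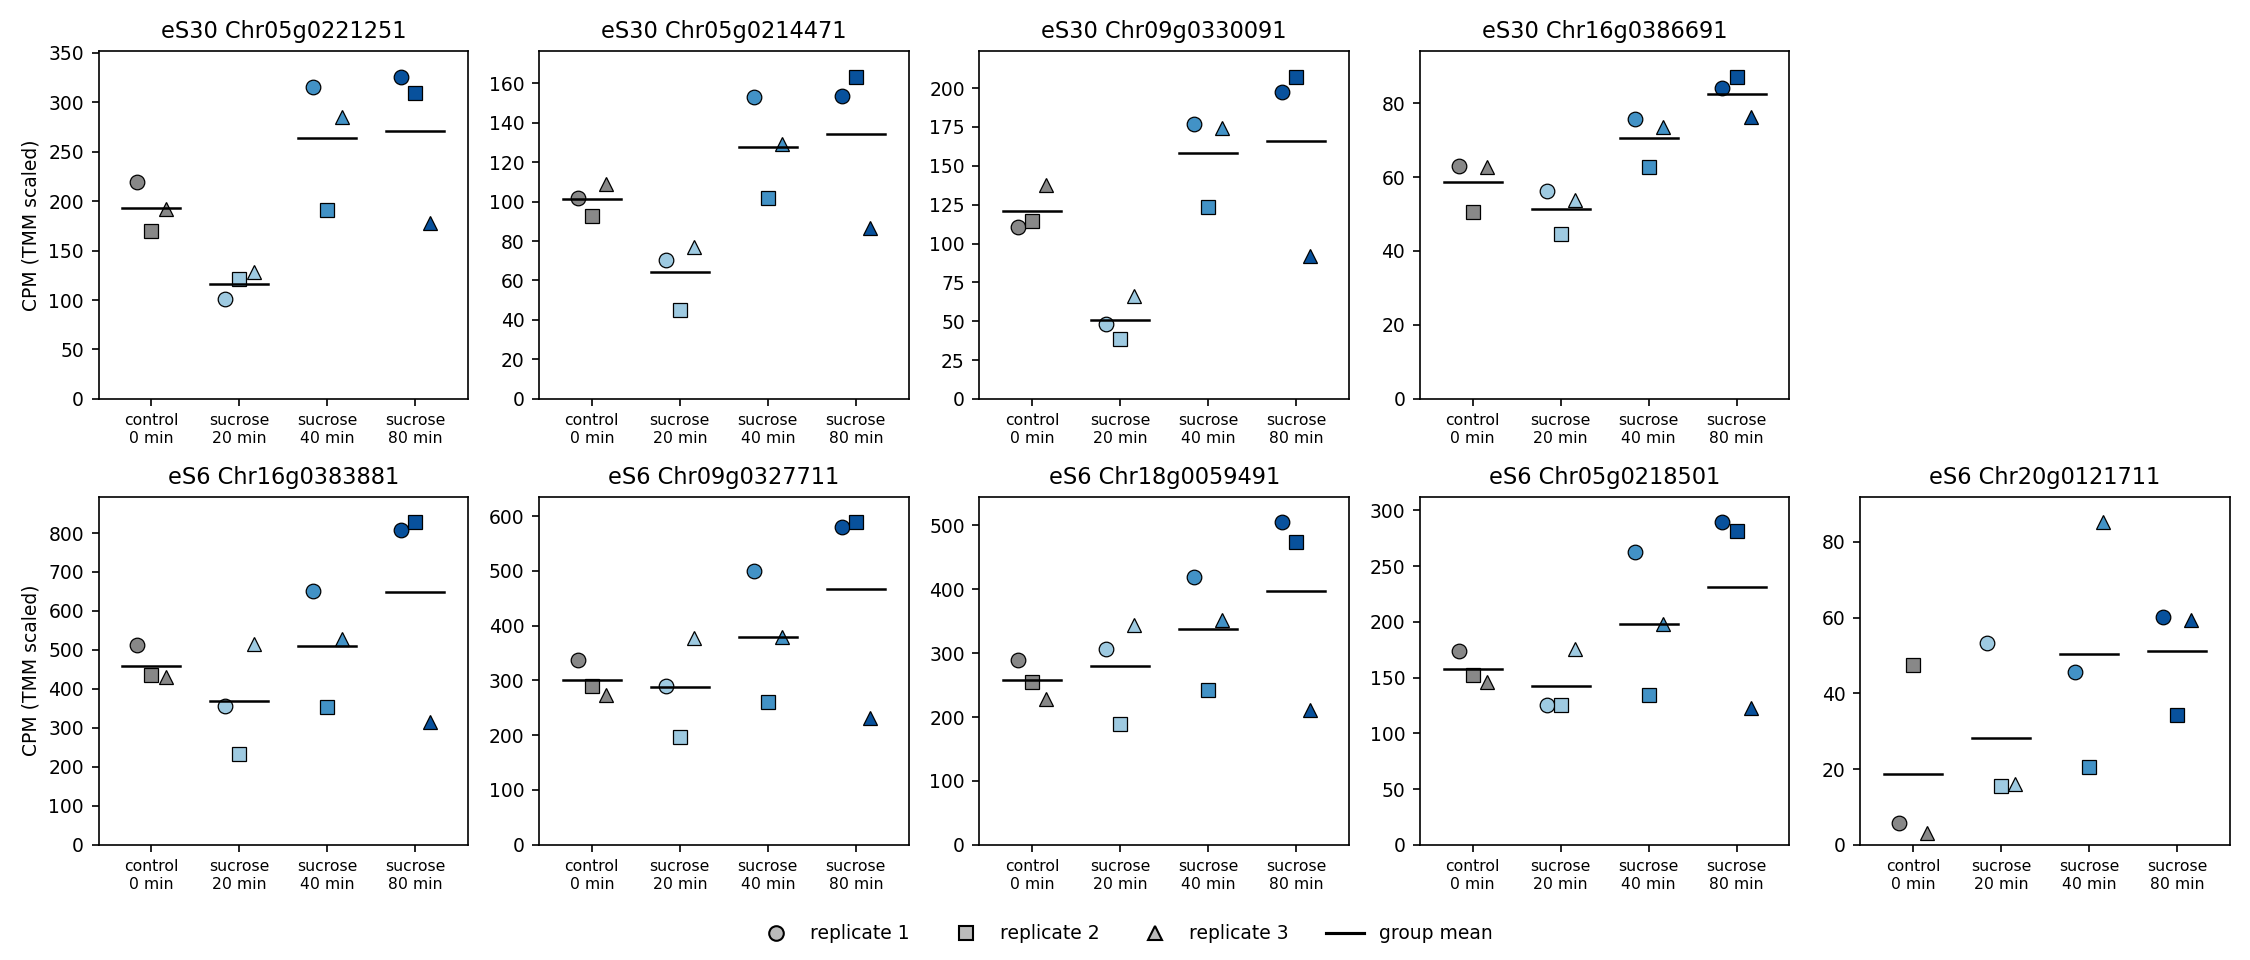
CPM per plant of the 4 eS30 genes (top) and the 5 eS6 genes (bottom), by time of exposure; symbols are replicates, black lines are group means, and each panel has its own axis from 0. For eS30, all plants at 40 and 80 min stand above all plants at 20 min, while 4 of the 5 eS6 genes share 1 pattern with overlap between groups and Lalb_Chr20g0121711 does not.

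eS6, the target of the S6 kinase, had 5 copies, all at 5 FPKM or more. The main copy, Lalb_Chr16g0383881, had 513, 435 and 429 CPM in controls, 355, 233 and 515 CPM at 20 min, 652, 354 and 528 CPM at 40 min and 807, 827 and 314 CPM at 80 min. Each sucrose group overlapped the controls. Log2 fold changes against control were -0.32 (SE 0.41), 0.16 (SE 0.41) and 0.50 (SE 0.41) at 20, 40 and 80 min, and edgeR adjusted p were 0.779, 0.999 and 0.676. The copies Lalb_Chr09g0327711, Lalb_Chr18g0059491 and Lalb_Chr05g0218501 were high and low in the same plants, with 580, 588 and 232 CPM, 505, 475 and 210 CPM, and 289, 281 and 123 CPM at 80 min. The fifth copy, Lalb_Chr20g0121711, the lowest at 23.3 FPKM, went another way. It had 5.71, 47.4 and 3.03 CPM in controls, 53.3, 15.6 and 15.9 CPM at 20 min, 45.7, 20.6 and 85.1 CPM at 40 min and 60.1, 34.2 and 59.4 CPM at 80 min. Its level differed widely between plants of the same group, and each sucrose group overlapped the controls.

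A search of the protein names for TOR, raptor, LST8 and the S6 kinase found 2 TOR kinase genes and 2 genes of its LST8 subunit. No gene was named as an S6 kinase, and genes of the pathway under other names were not sought. None of these 4 genes was called by edgeR or DESeq2 in the 3 comparisons with control, and 0 of 4 had p below 0.05 before adjustment. Their summed level was 63.8 to 133 CPM in controls, 84.6 to 101 CPM at 20 min, 89.2 to 98.3 CPM at 40 min and 82.6 to 160 CPM at 80 min. Translation factors, which load messenger RNA and transfer RNA onto the small subunit, gave 0 calls of 103 by edgeR in each comparison with control, with medians of -0.02, 0.13 and 0.27 at 20, 40 and 80 min. Before adjustment, 4 were higher and 6 lower at 20 min (3.88% and 5.83%, beside 7.32% and 5.28% of all genes), 0 differed at 40 min and 1 was higher at 80 min (0.971%, beside 4.46%). DESeq2 called 1 higher and 1 lower at 20 min, with 2.06% and 2.03% of all genes called, and 0 at 40 and 80 min.

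Most cytosolic copies followed 1 pattern across the 12 plants, as the heat map of families shows. The 108 copies at 5 FPKM or more were compared on a log2 CPM scale, each against the mean of the other 107. The median SD of a copy over the 12 plants was 0.55 before and 0.22 after that mean was subtracted. The SD became smaller for 100 of 108 copies (92.6%), against 22.9% of 12227 other genes at 5 FPKM or more. Large subunit names, not separated by compartment, shared the pattern in 80.9% of 241 genes, and ribosome biogenesis names in 63.9% of 36. Cell cycle names shared it in 55% of 40 and translation factors in 50.6% of 77. Mitochondrial small subunit genes shared it in 54.5% of 11 and plastid ones in 37.5% of 8. These shares are descriptions, since the copies share their libraries. The steadiest copy relative to the others was the uS19 gene Lalb_Chr09g0330951, a head protein, whose SD was 0.08 after and 0.51 before that mean was subtracted.

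**Figure D4:**
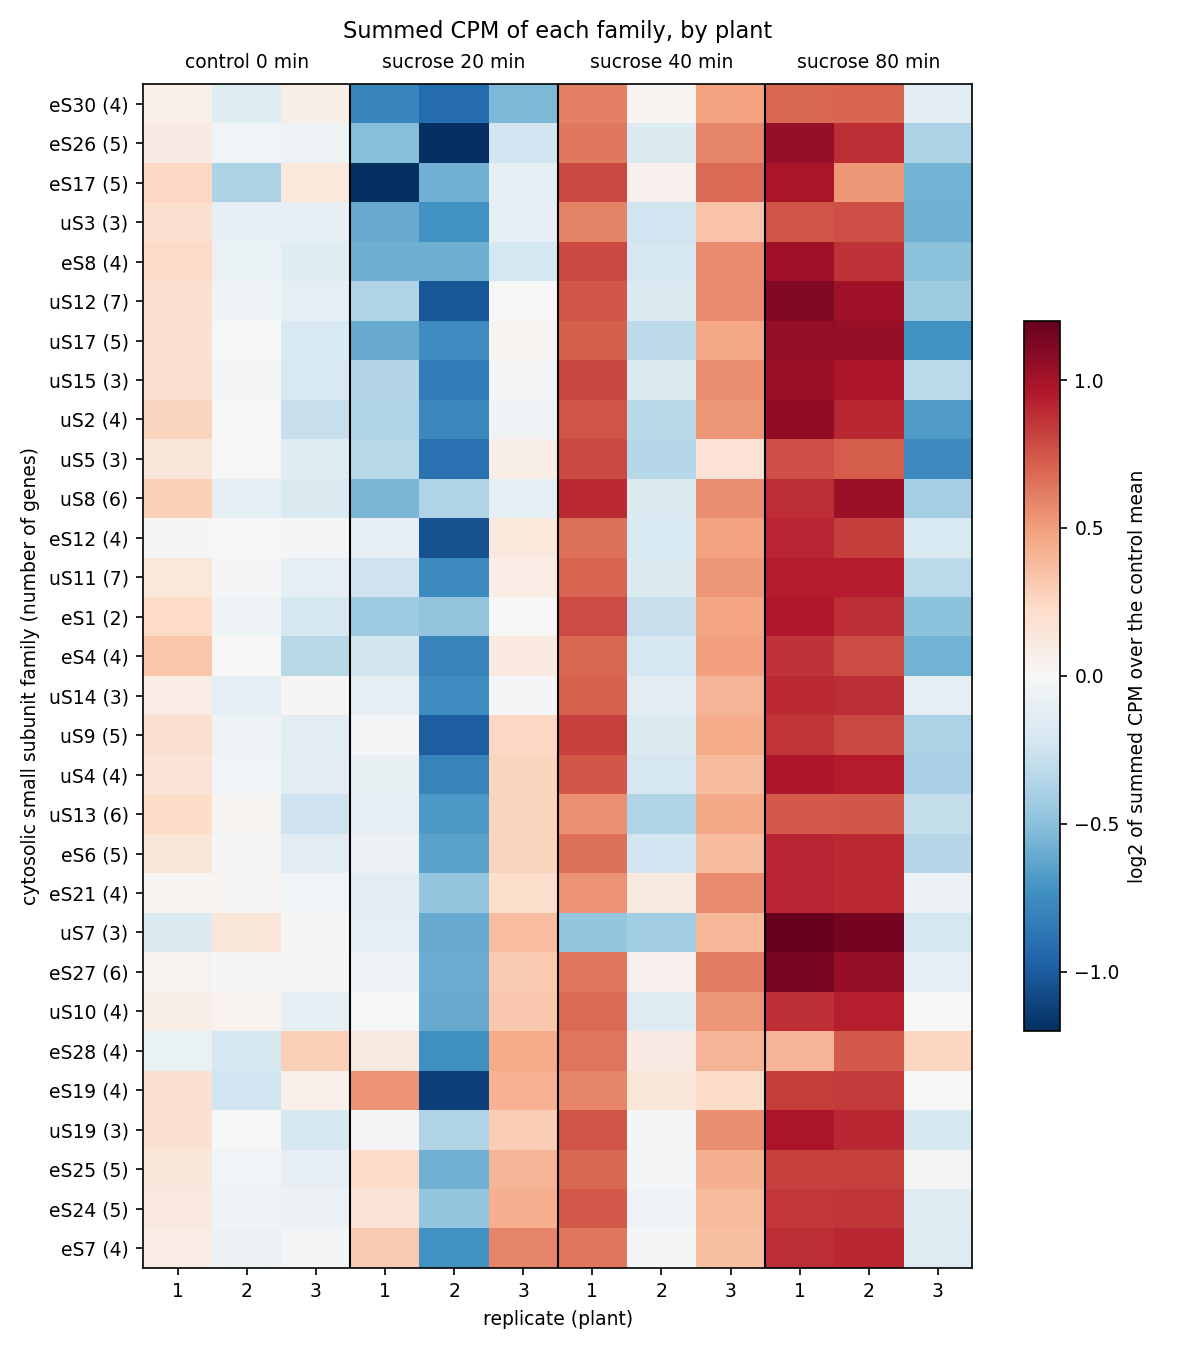
Log2 of each family's summed CPM over its control mean, for 30 cytosolic families (rows, ordered by the mean at 20 min, number of genes in brackets) and 12 plants (columns); red is above and blue below the control mean. Replicates 1 and 2 at 80 min are red in all 30 families, replicate 3 in 2, and replicate 2 at 20 min is blue in all 30.

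The shared pattern varied widely between plants of a sucrose group. Its mean deviation was -0.09 ± 0.15 in controls, -0.42 ± 0.39 at 20 min, 0.21 ± 0.42 at 40 min and 0.30 ± 0.65 at 80 min (log2, SD over n = 3 plants each). Differences between groups made up 38.6% of its sum of squares over the 12 plants, and the pooled SD within groups was 0.44. The number of families above the control mean was 5, 0 and 20 of 30 in replicates 1, 2 and 3 at 20 min. It was 29, 6 and 30 in the plants at 40 min, and 30, 30 and 2 in those at 80 min.

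**Figure D5:**
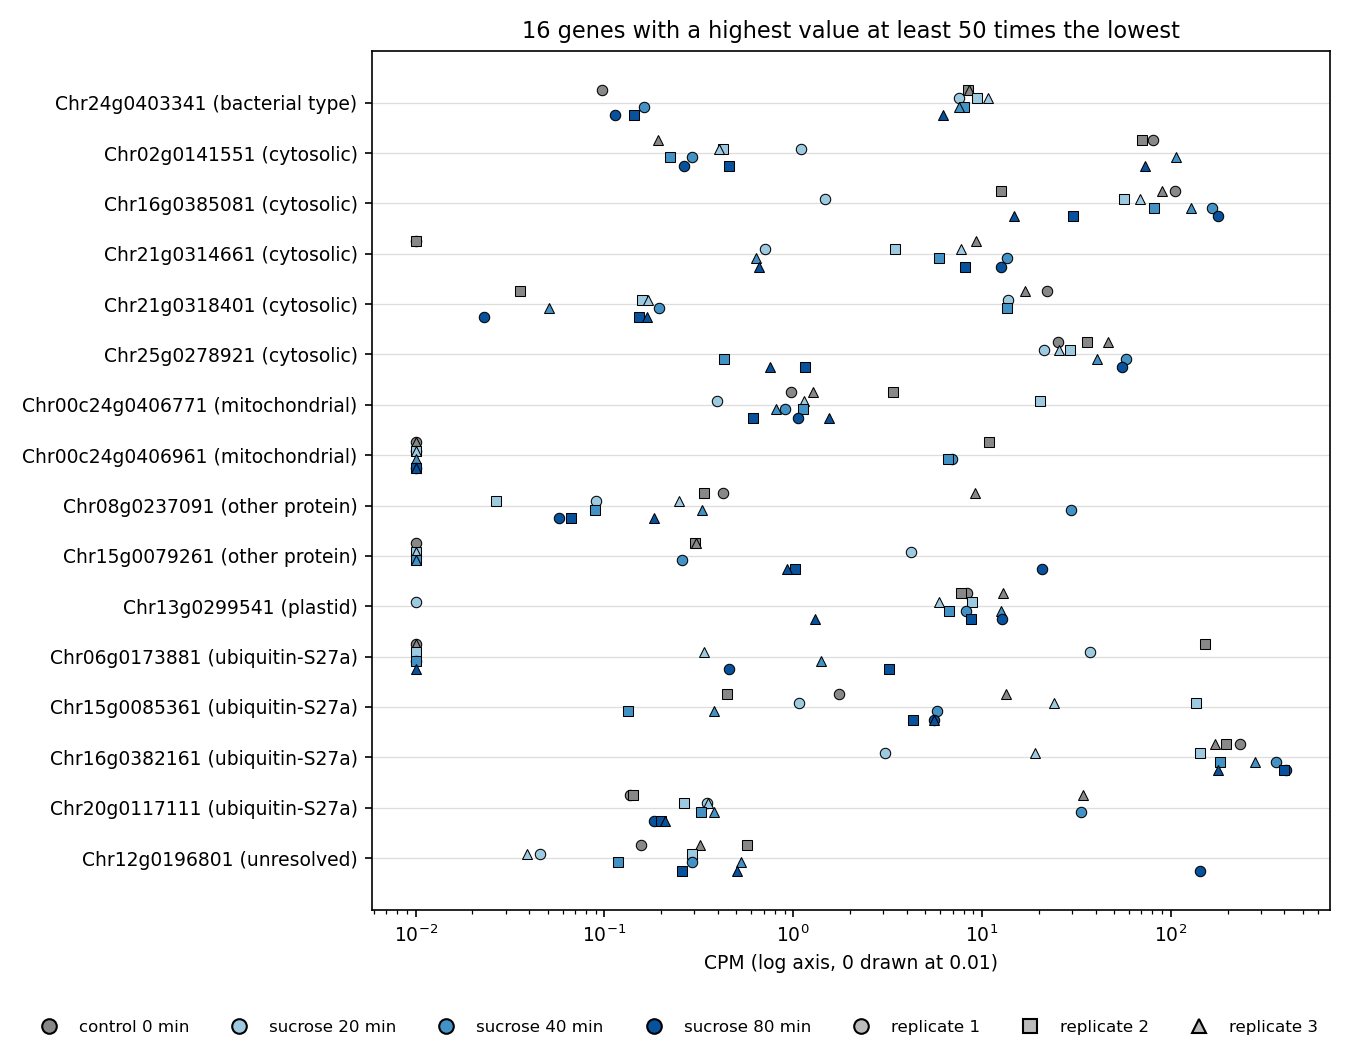
CPM per plant (log axis, 0 drawn at 0.01) of the 16 tested members whose highest value is at least 50 times the lowest; colours are times of exposure and symbols are replicates. Plants of the same group lie on both sides of the gap in most of the 16 genes.

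A few copies did not follow the shared pattern and were present in some plants and near absent in others. By a rule chosen after the values were seen (highest value at least 50 times the lowest, with a floor of 3 reads per library, and at least 5 CPM), 16 of the 208 tested members, or 7.69%, were of this kind, against 7.19% of all genes tested, so the share is near the background. Of the 16, 5 are cytosolic and 4 are ubiquitin-S27a genes. The uS13 gene Lalb_Chr02g0141551 had 80.8, 70.6 and 0.192 CPM in controls, 1.10, 0.424 and 0.404 CPM at 20 min, 0.291, 0.222 and 107 CPM at 40 min and 0.263, 0.457 and 73.1 CPM at 80 min. It was present in 4 plants from 3 groups. The eS19 gene Lalb_Chr21g0318401, described above, was present in 4 plants, 2 of them controls. Such genes have large fold changes with large SE. The eS12 gene Lalb_Chr25g0278921 stood at 0.430 CPM in 40 min replicate 2, and at 1.15 and 0.756 CPM in 80 min replicates 2 and 3, against 21.4 to 57.9 CPM in the other 9 plants. Whether plants of this cultivar differ in these genes was not tested.

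Copies next to each other on a chromosome did not always go together. By the order of genes in the RefSeq annotation, 15 pairs of members lie within 3 genes of each other. In 4 of them both genes are cytosolic copies of the same family: uS13, eS17, eS19 and eS28. The eS17 pair (Lalb_Chr09g0328611 and Lalb_Chr09g0328631) averaged 81.7 and 81.2 CPM, with log2 fold changes of 1.07 and 1.12 at 80 over 20 min. In the eS28 pair, Lalb_Chr25g0287721 stood at 40.1 to 83.0 CPM in the 12 plants, and its neighbour Lalb_Chr25g0287731 at 8.50 to 156 CPM. Of the 5 eS6 genes, 2 (Lalb_Chr16g0383881 and Lalb_Chr09g0327711) each lie within 2 genes of a plastid uS5c gene.

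Plastid small subunit genes were low in these roots. Their mean sums at 20, 40 and 80 min (292, 299 and 333 CPM) kept the order of the cytosolic sums, while their median fold changes did not. Their summed level was 261, 274 and 271 CPM in controls, 285, 247 and 343 CPM at 20 min, 339, 263 and 294 CPM at 40 min and 372, 388 and 239 CPM at 80 min. At 20 and 80 min plants stood on both sides of the controls, and at 40 min replicates 1 and 3 stood above all controls while replicate 2 lay within their range. Median log2 fold changes of the 22 tested plastid genes were 0.27, 0.11 and 0.37 at 20, 40 and 80 min against control, and none was called by edgeR, while DESeq2 called 1 at 20 min. That gene, the uS15c gene Lalb_Chr07g0191831, had 46, 10 and 32 reads at 20 min, against 5, 3 and 5 reads in controls, and was below the mean of 2 CPM that the naming rule asked for. The most abundant plastid gene, the uS17c gene Lalb_Chr22g0351371 at 35.7 FPKM, had 38.4, 34.7 and 35.6 CPM in controls, 38.1, 24.4 and 38.6 CPM at 20 min, 41.2, 34.2 and 28.9 CPM at 40 min and 38.6, 45.6 and 29.7 CPM at 80 min. The uS5c gene Lalb_Chr09g0327691, the plastid gene with the smallest p above 2 CPM at 20 min, had 29.4, 17.7 and 53.0 CPM, compared with 20.0, 17.6 and 20.2 CPM in controls (log2 fold change 0.79 ± 0.35 SE; adjusted p = 0.394 by edgeR). Replicate 2 at 20 min lay within the controls. The photosynthesis names, which mark green plastids, summed to 1958, 570 and 1318 CPM at 20 min, compared with 687, 565 and 729 CPM in controls, with replicates 1 and 3 high in both sets, and their part in the plastid values was not tested.

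The bacterial-type genes lay between the cytosolic and plastid levels. Their 15 members had a median of 7.64 FPKM, led by a bS6 gene (Lalb_Chr01g0020901, 30.5 FPKM), a protein of the bacterial platform that is unrelated to eS6. It had 43.8, 43.3 and 49.8 CPM in controls, 50.8, 39.6 and 66.0 CPM at 20 min, 47.2, 39.2 and 45.7 CPM at 40 min and 53.9, 66.9 and 38.2 CPM at 80 min. All 3 sucrose groups overlapped the controls. The bTHX gene Lalb_Chr23g0265121 had 19.8, 12.5 and 11.4 CPM at 20 min, compared with 4.93, 8.48 and 11.05 CPM in controls (log2 fold change 0.84 ± 0.42 SE; adjusted p = 0.436 by edgeR), and the groups did not overlap.

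Mitochondrial small subunit genes summed to 381, 359 and 381 CPM in controls, 298, 358 and 332 CPM at 20 min, 465, 349 and 366 CPM at 40 min and 447, 471 and 323 CPM at 80 min. All plants at 20 min stood below all controls, with replicate 2 just below the lowest control. The medians of the 16 tested genes were 0.06, 0.13 and 0.06 at 20, 40 and 80 min against control, and edgeR and DESeq2 called none of them. The mS29 gene Lalb_Chr18g0051461, a GTP-binding protein of the mitochondrial small subunit, had 31.4, 31.6 and 41.3 CPM at 20 min, compared with 69.8, 41.5 and 58.5 CPM in controls. The groups did not overlap, although 20 min replicate 3 and control replicate 2 were close (log2 fold change -0.70 ± 0.26 SE; adjusted p = 0.318 by edgeR). The mS33 gene Lalb_Chr10g0097141, the most abundant mitochondrial member at 29.98 FPKM, had 59.9, 58.9 and 32.2 CPM at 80 min, compared with 22.5, 26.3 and 26.0 CPM at 20 min. Those groups did not overlap (log2 fold change 1.01 ± 0.26 SE; adjusted p = 0.1604 by edgeR), and DESeq2 gave an adjusted p of 0.0156 among alternatives of 0.0114 to 0.503. The uS10 gene Lalb_Chr05g0211691 had 40.3, 47.7 and 45.7 CPM at 40 min, compared with 45.4, 52.1 and 54.8 CPM in controls (log2 fold change -0.19 ± 0.16 SE; adjusted p = 0.999 by edgeR). In this comparison it was among the 3 members with the smallest p on the lower side.

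Of the 19 mitochondrial genes, 6 lie on the mitochondrial chromosome of the RefSeq assembly, and 5 of the 6 averaged below 1 FPKM in this polyadenylated RNA. The uS4 gene Lalb_Chr00c24g0406771 stood at 20.3 CPM in 20 min replicate 2 and at 0.393 to 3.37 CPM in the other 11 plants. The 20 min group therefore rests on 1 plant in its log2 fold changes of -2.94 at 40 over 20 min and -2.76 at 80 over 20 min, which turned to 0.31 and 0.45 without that plant. The uS12m gene Lalb_Chr00c24g0406961 had 10.8 CPM in control replicate 2, 6.96 and 6.60 CPM in 40 min replicates 1 and 2, and 0 reads in the other 9 plants.

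The 9 ubiquitin-S27a genes are named for ubiquitin joined to a small subunit protein (eS31) that is released by cleavage. Of them, only Lalb_Chr16g0382161 is also placed in the eS31 family by its annotation, and the rest have the name alone. The main one, Lalb_Chr16g0382161 at 146 FPKM, had 3.05, 142 and 19.2 CPM at 20 min, compared with 232, 197 and 171 CPM in controls. All 3 plants at 20 min were below all controls, but replicate 2 was near them and replicates 1 and 3 far below, the reverse of the order in the low-oxygen list. At 40 min it had 360, 183 and 279 CPM and at 80 min 409, 397 and 179 CPM. edgeR called it in 2 of 18 alternatives at 20 min, both without replicate 2 (adjusted p of 0.0185 and 0.0296, with a highest value of 0.730). In contrast, Lalb_Chr15g0085361 had 1.07, 137 and 24.0 CPM at 20 min, compared with 1.75, 0.444 and 13.5 CPM in controls, and 5.76, 0.133 and 0.380 CPM at 40 min. Lalb_Chr09g0327811 had 6.12, 4.38 and 7.53 CPM at 20 min, compared with 60.2, 6.50 and 18.8 CPM in controls (log2 fold change -2.24 ± 0.80 SE; adjusted p = 0.309 by edgeR). Those 2 groups overlapped, with control replicate 2 inside the 20 min range. Lalb_Chr06g0173881 stood at 153 CPM in control replicate 2, at 37.5 CPM in 20 min replicate 1, at 0 in the other 2 controls and at 0 to 3.24 CPM in the other 8 plants, and Lalb_Chr20g0117111 at 33.3 and 34.3 CPM in 1 plant at 40 min and 1 control, against 0.136 to 0.380 CPM in the other 10.

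Members that match only by words are given for completeness. The elongation factor 1B gene Lalb_Chr17g0347711, whose protein recharges the factor that brings transfer RNA, had 213, 119 and 166 CPM at 40 min and 277, 270 and 159 CPM at 80 min, compared with 89.4, 135 and 61.9 CPM in controls. At 80 min all plants stood above all controls (log2 fold change 1.30 ± 0.41 SE; adjusted p = 0.376 by edgeR), and at 40 min replicate 2 fell within the control range. Another, Lalb_Chr08g0237091, stood at 29.6 CPM in 40 min replicate 1, 9.21 CPM in control replicate 3 and 0.0265 to 0.427 CPM in the other 10 plants. Among the genes that could not be placed, Lalb_Chr12g0196801, named for S4/S9 and next to a cytosolic uS4 gene, had 143 CPM in 80 min replicate 1 and 0.0391 to 0.568 CPM in the other 11 plants. Its log2 fold change of 7.10 at 80 min against control (SE 2.21; edgeR adjusted p = 0.376) therefore comes from 1 plant.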

How the data were processed

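RNA from root sections of 12 plants was sequenced, 3 plants per time. Per the submitters' processing notes, bcl2fastq 2.20, FastQC, Trimmomatic 0.32, HISAT2, StringTie and DESeq2 were used; no build, no strand setting and no handling of multi-mapped reads is named there (not given in the sources used here). The authors deposited 1 table with read counts per gene and library, not normalized. It also holds FPKM values that the authors scaled by transcript length and library size. The authors deposited log2 fold changes of each sucrose time over control as well, and their p-values with adjusted p-values from DESeq2. All 33388 gene IDs matched the RefSeq gene table (assembly CNRS_Lalb_1.0), used only for neighbours and chromosomes.

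Counts were fitted with edgeR 4.0.16 in R 4.3.3 (TMM scaling, expression filter by group, robust quasi-likelihood F test, 8 residual degrees of freedom, 12 libraries in 1 fit by group) over 28980 genes, and a member was called at a Benjamini-Hochberg adjusted p below 0.05. SE is the log2 fold change over the square root of F. CPM are TMM scaled. Levels of different genes were compared in FPKM. Scripts ran in Python 3.11.15, and the fits were tested on simulated counts. Those counts had less spread between plants than the real ones, so that test does not measure recovery in these data. DESeq2 1.42.0 was an alternative, as were other scaling, no filter, a replicate block, fits to 6 libraries, each library left out in turn, and both libraries that stand apart left out. The labels name separate plants but give no other batch than the shared lane, and plants with the same replicate number were not treated as pairs (correlation of their deviations from group means from -0.27 to 0.20, above 0.1 in 5 of 18 pairs).

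Members and lists were chosen with earlier results of these data known. Named genes are, with a mean of at least 2 CPM, the 3 with the smallest p in each direction at each time against control and the 2 between times, the 3 cytosolic and 3 organelle genes with the highest FPKM, the eS6 genes, and the highest and lowest copies of the 3 largest families (uS13 taken by summed FPKM from 3 tied at 6 copies). Other genes named (further eS30, eS21, eS17, eS28 and uS7 copies, the uS13, eS12, eS19 and mitochondrial uS12m genes with uneven levels, the steadiest uS19 copy, uS15c, and Lalb_Chr16g0382161) were chosen after their values were seen. Depth limits low copies most: the floor of 3 reads covers counting error only. Promoter and protein sequences were not used here.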

Additional observations from a re-analysis of the deposited data

Results flagged for a closer look

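The eS27 gene Lalb_Chr21g0316941 stood on opposite sides of the controls at 2 times. It had 66.7, 61.3 and 64.1 CPM in controls, 52.5, 34.8 and 61.2 CPM at 20 min and 104, 72.2 and 99.1 CPM at 40 min. All 3 plants at 20 min were below all controls (log2 fold change -0.37), the highest of them only just, and all 3 plants at 40 min were above all controls (0.52). Neither difference from control was called by edgeR (adjusted p of 0.622 and 0.948). Between 40 and 20 min, the log2 fold change was 0.89 ± 0.30 SE, with an adjusted p of 0.259 by edgeR and 0.0372 to 0.622 over the alternatives. The rule that flagged the gene already places every plant at 40 min above every plant at 20 min. This last comparison is therefore no separate support. Many members were compared, and 10.8% of all genes stood below all controls at 20 min.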

How the results depend on the processing

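edgeR called 0 members in each comparison, also with other scaling, without the filter and in fits to 6 libraries. The replicate block, whose numbers do not pair these plants, called 0 members too and gave cytosolic medians of -0.21, 0.37 and 0.57 at 20, 40 and 80 min against control. DESeq2 called 4, 1 and 2 members at 20, 40 and 80 min against control, 9 at 40 against 20 min, 19 at 80 against 20 min and 8 for any time. Without both libraries that stand apart, edgeR called 3 and 14 at 20 and 80 min against control (1.44% and 6.7% of members, beside 8.16% and 5.54% of all genes), 13 at 40 against 20 min (6.22%, beside 10.7%), 57 at 80 against 20 min (27.3%, beside 17.8%) and 25 for any time (12.0%, beside 15.2%). Replicate 3 at 80 min was set apart for its low level of these same genes, so counts without it depend on that choice. Leaving out 1 library at a time gave 0 to 2 calls at 20 min and 0 to 1 at 80 min against control, 0 to 1 at 40 against 20 min, 0 to 64 at 80 against 20 min and 0 to 4 for any time, where the fits with the most calls passed 3.43%, 1.56%, 4.91%, 12.0% and 1.8% of all genes. In FPKM, cytosolic genes took 2.63% of the summed level in controls, 2.29% at 20 min, 3.57% at 40 min and 4.14% at 80 min. Of 539 alternatives for the 30 named results, 517 kept direction and side of the threshold, 16 passed it and 6 turned round. Lalb_Chr00c24g0406771 turned to 0.31 (range -3.49 to 0.31) at 40 against 20 min and 0.45 (range -3.32 to 0.45) at 80 against 20 min without 20 min replicate 2, and to 0.37 and 0.19 without both libraries. Lalb_Chr06g0173881 turned to 8.04 (range -14.75 to 8.04) at 40 min without control replicate 2, and Lalb_Chr20g0117111 to 0.41 (range -6.43 to 0.41) at 80 min without control replicate 3. In each of these cases the library left out held the high value. For other changes the cause was not tested. Cytosolic medians ranged from -0.45 to -0.13 at 20 min, 0.16 to 0.53 at 40 min and 0.35 to 0.88 at 80 min against control, and 0.42 to 0.81 (40 over 20 min), 0.56 to 1.10 (80 over 20 min) and -0.01 to 0.50 (80 over 40 min), with 1 library left out. The common coefficient of variation between plants of a group, 0.67, limits what 3 plants per group can show.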
